A study of Rattus norvegicus with 35 samples.

Results

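Rats of the same dose group differed widely in how strongly their livers expressed interferon-induced genes, and the livers at both ends of that range were compared here. The rats, males of the Harlan Sprague Dawley strain that were 7 weeks old when dosing began, were gavaged for 5 days with corn oil at 5 ml/kg. The oil was given alone (6 vehicle rats) or carried BTBPE, a brominated flame retardant, at 680, 68, 6.88, 0.69 or 0.07 mg/kg. RNA was taken from the left lobe the day after the last dose, and each rat gave 1 Affymetrix array. For each array, the log2 levels of 5 interferon-induced genes (Mx1, Mx2, Rtp4, Oas1a and Usp18) were averaged, and the mean of the array's own dose group was subtracted. The 10 arrays with the highest score are called interferon-high livers and the 10 with the lowest interferon-low livers, which makes 20 of the 35 livers, and the other 15 are called middle livers. The livers were thus chosen by their measured levels of these 5 genes, and the classes are not treatments of the study. The scoring genes are given as a description only and were left out of all other results.

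Type I interferons are secreted when cells sense viral or other nucleic acids. They bind a receptor whose JAK kinases start a signal that reaches a complex holding IRF9, which binds a promoter element named ISRE and switches on antiviral genes. Interferon gamma, made mainly by natural killer and T cells, acts at another element, GAS, and raises GTPases, chemokines and antigen presentation. In liver, Kupffer cells, the resident macrophages of the sinusoids, express many sensors and responders of this system.

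Promoters of the genes that differed most between the classes were searched for the ISRE. Of the 15 called genes with the largest differences among those with a mean log2 level of at least 4.71, the lowest array median, 13 had a promoter in the RefSeq table of assembly GRCr8, and 5 of these held the ISRE core within 250 bases before the start, searched on both strands as GAAA, any 2 bases and GAAA. Their stretches are shown because they carry this element, with the match in capitals, each on the strand of its gene and read 5′ to 3′.
Irf7, chr1:205800033-205800142, minus strand: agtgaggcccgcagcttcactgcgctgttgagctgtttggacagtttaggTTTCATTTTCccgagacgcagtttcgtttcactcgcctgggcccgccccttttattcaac
Lgals3bp, chr10:104127849-104127948, minus strand: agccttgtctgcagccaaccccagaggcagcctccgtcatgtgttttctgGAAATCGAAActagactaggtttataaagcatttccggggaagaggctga
Gbp2, chr2:234005646-234005726, plus strand: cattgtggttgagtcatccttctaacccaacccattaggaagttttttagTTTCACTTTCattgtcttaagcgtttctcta
Fcgr3a, chr13:85782481-85782590, plus strand: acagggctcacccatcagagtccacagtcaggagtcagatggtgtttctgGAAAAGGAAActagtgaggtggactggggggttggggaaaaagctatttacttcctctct
RT1-S3, chr20:2675366-2675475, plus strand: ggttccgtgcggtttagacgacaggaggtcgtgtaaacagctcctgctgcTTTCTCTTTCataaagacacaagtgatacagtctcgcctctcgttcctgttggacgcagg
The match began 69 bases before the start in Irf7, 50 in Lgals3bp, 31 in Gbp2, 105 in Fcgr3a and 112 in RT1-S3. The core was found on either strand in 902 of all 27457 promoters (3.29%) and in 310 of the 11731 promoters of genes tested (2.64%), and in 43 of 203 promoters of genes called higher (21.2%). The GAS core, searched as TTC, any 3 bases and GAA, stood in 718 promoters of genes tested (6.12%) and in 22 of those 203 (10.8%). A match describes letters and does not show that a factor binds.

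The mean of the 5 scoring genes ran from 6.31 to 7.15 in interferon-high livers (median 6.62), from 5.98 to 6.45 in middle livers (median 6.19) and from 4.59 to 5.52 in interferon-low livers (median 4.92). The low end therefore lay farther from the middle than the high end did. As deviations from the dose group means, Mx2 differed most between the classes, by 1.93, and Usp18 least, by 1.54. At the upper limit of the score, replicate 3 of 68 mg/kg was the last liver inside at 0.508 and replicate 5 of 680 mg/kg the first outside at 0.507, so that boundary cuts a continuous range. At the lower limit, replicate 6 of 0.07 mg/kg was the last liver inside at -0.37 and replicate 2 of 6.88 mg/kg the first outside at -0.13. The other 9 interferon-low livers scored -0.87 or less, with no liver between -0.87 and -0.37.

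**Figure D1:**
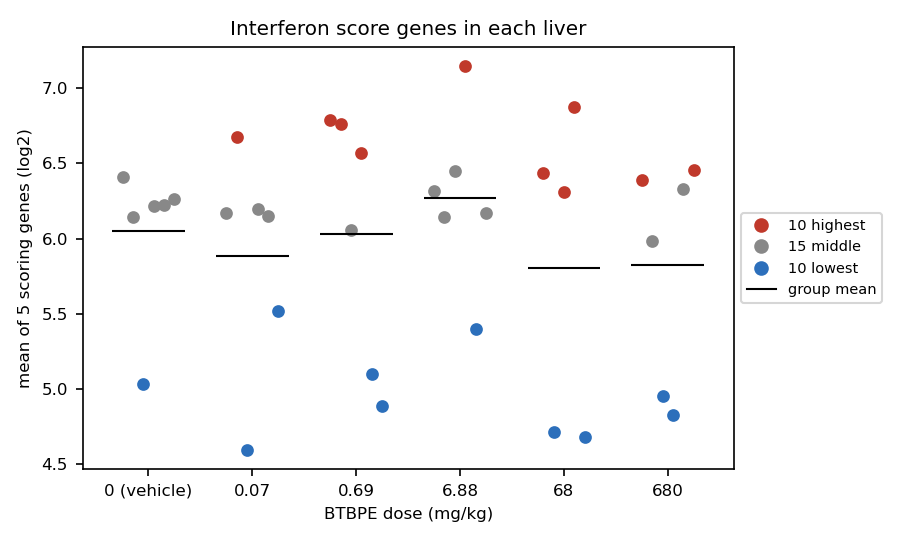
Mean log2 level of the 5 scoring genes in each of 35 livers, by dose group, coloured by class, with the group mean as a line. Each dose group holds at least 1 interferon-low liver at 5.52 or below, while the other livers stand at 5.98 or above.

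Interferon-low livers occurred in every dose group, vehicle included. The vehicle group held 0 interferon-high, 5 middle and 1 interferon-low liver. The 0.07 mg/kg group held 1, 3 and 2, the 0.69 mg/kg group 3, 1 and 2, the 6.88 mg/kg group 1, 4 and 1, the 68 mg/kg group 3, 0 and 2, and the 680 mg/kg group 2, 2 and 2. Without subtraction of the dose group means, the score picked all 10 interferon-low livers again and 8 of the 10 interferon-high livers. The subtracted mean is lowered by a group's own interferon-low livers, so these counts do not compare levels between doses. Replicate 3 of 68 mg/kg, for example, was interferon-high with a mean of the scoring genes of 6.31. Vehicle replicate 1 at 6.41 and replicate 3 of 6.88 mg/kg at 6.45 were middle livers.

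The tissue label held. The hepatocyte markers Alb, Ttr, Apoa1, Serpina1, Cps1, Ass1 and Glul were bright in all arrays, from 10.28 for the dimmest array of Glul to 14.44 for the brightest of Alb, and differed between the classes by -0.17 to 0.02 with none past the threshold. The fall in signal from the 3′ to the 5′ end of Actb, a measure of RNA integrity, was 1.02 to 1.26 (median 1.09) in interferon-high and 1.10 to 1.31 (median 1.2) in interferon-low livers, so the interferon-low livers were shifted toward less intact RNA, with overlap. With this value as a covariate 245 probe sets were called higher in place of 354 and 7 lower in place of 16. In that fit 36 effectors were called in place of 39 and 5 class II genes in place of 6, and 7 of 57 called genes named here lost their call. Array medians lay between 4.71 and 4.79, and levels below 4.71 are called dim here.

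The difference between the classes was tested with limma in 1 fit to all 35 arrays with terms for dose group and class, over 31036 probe sets, at a Benjamini-Hochberg adjusted p of 0.05. In interferon-high livers 354 probe sets were higher (1.14%) and 16 lower (0.0516%), which is 370 in either direction (1.19%). Without the 0.69 mg/kg group 229 were higher. The count of lower probe sets was 8 without replicate 4 of 6.88 mg/kg, 9 without replicate 4 of 680, 10 without replicate 5 of 0.69 and 28 without replicate 2 of 68 mg/kg. With 1 probe set per gene, 248 of 14212 genes were higher (1.75%) and 5 lower (0.0352%), and the median over all genes was -0.0059. Of the 248, 70 differed at least 1.5-fold and 18 at least 2-fold. For 82 genes (0.577%) every interferon-high liver lay above every interferon-low liver after subtraction of the dose group means, and for 0 genes below. Of all 14212 genes 6585 had a difference above 0. The list counts that follow are to be read beside these values for all genes. Since interferon genes are known to move with the scoring genes, their calls are not independent evidence that the classes differ in interferon response. As these are RNA levels of whole liver tissue, fewer cells of a type and less RNA per cell cannot be told apart.

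The antiviral effectors were higher in many members. Of 62 measured effectors 39 were higher, against 1.75% of all genes, and 0 lower, with a median of 0.41. A difference above 0 was seen in 59, against 6585 of all 14212 genes. The groups did not overlap for 23 effectors, against 0.577% of all genes. Isg15, a ubiquitin-like protein that is attached to target proteins, had log2 levels of 6.37 to 7.27 (median 6.98) in interferon-high, 6.34 to 6.84 (median 6.57) in middle and 5.32 to 6.18 (median 5.72) in interferon-low livers. All 10 interferon-high livers stood above all 10 interferon-low livers, a 2.33-fold difference (95% interval 2.07 to 2.63, limma adjusted p = 8.81e-12). Ifi27, a mitochondrial protein, was the brightest of the effectors, at 12.26 to 12.51 (median 12.38) against 11.32 to 12 (median 11.57), and was 1.75-fold higher (1.62 to 1.90). Its relative Ifi27l2b was 1.89-fold higher (1.61 to 2.21). The surface protein Ly6e was 2.39-fold higher (2.06 to 2.77), the secreted glycoprotein Lgals3bp 2.22-fold (1.93 to 2.57) and Ifi44l 1.97-fold (1.70 to 2.29). Ddx60 and Ifit3, an RNA helicase and an RNA-binding antiviral protein, were 2.28-fold and 2.07-fold higher, but both were dim, with means of 3.50 and 4.24.

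Slfn4, a Schlafen family member of myeloid cells, had the largest fold among the effectors at 2.40 (1.90 to 3.04), yet its other probe set moved the opposite way without a call. Not all classical interferon targets followed the score. Ifit1 differed by 0.02 ± 0.10 (log2, SE) and Trim14 by -0.04 ± 0.11, while Ifit2 differed by 0.49 ± 0.13 and was not called. The effectors' promoters held the ISRE core in 16 of 34 called genes (47.1%) and in 6 of 19 not called (31.6%).

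Among the regulators, Irf7 and Irf9 stood out from the rest of the signalling list. Irf7, the transcription factor that amplifies interferon production, had levels of 7.31 to 7.95 (median 7.46) in interferon-high, 6.92 to 7.59 (median 7.2) in middle and 5.80 to 6.57 (median 6.06) in interferon-low livers. It was 2.72-fold higher (2.37 to 3.11, limma adjusted p = 5.27e-12), without overlap. Irf9, a DNA-binding part of the complex at the ISRE, was 2.12-fold higher (1.86 to 2.40), at 6.62 to 7.35 against 5.27 to 6.51. Irf8, a factor of macrophages and dendritic cells, was 1.38-fold and Irf1, the main factor induced by interferon gamma, 1.35-fold higher. These 4 were the called members of 25 measured, whose median difference was 0.09. The receptor chains and kinases did not pass the test, with differences of -0.07 ± 0.06 for Ifnar1, 0.07 ± 0.07 for Ifnar2, -0.01 ± 0.04 for Jak1 and 0.00 ± 0.05 for Tyk2. Stat2 differed by 0.11 ± 0.06 and was not called either.

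The measured interferons were dim and did not pass the test. Ifnb1 had a mean of 3.50 and Ifng of 2.56, and they differed by -0.10 ± 0.06 and -0.12 ± 0.06. Of 7 measured ligands and inducing cytokines 1 was higher, Il18, a macrophage cytokine that stimulates interferon gamma production, at 1.41-fold (1.23 to 1.61). Of 12 nucleic acid sensors and adaptors 5 were higher, with a list median of 0.15. Dhx58, a helper of the RNA sensors, was 1.46-fold higher (1.34 to 1.60) with no overlap. Rig1, the RIG-I sensor of viral RNA, was 1.27-fold higher (1.18 to 1.35) and also had no overlap. Tlr7, a dim endosomal RNA receptor, and its transport partner Unc93b1 were both 1.38-fold higher. Ifih1, the sensor MDA5, was 1.2-fold higher (limma adjusted p = 0.0137), and lost its call without replicate 2 of 0.07 mg/kg (limma adjusted p = 0.0519). The adaptors Mavs, Myd88, Ticam1, Tbk1 and Traf3 did not pass, with differences from -0.11 to 0.06.

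**Figure D2:**
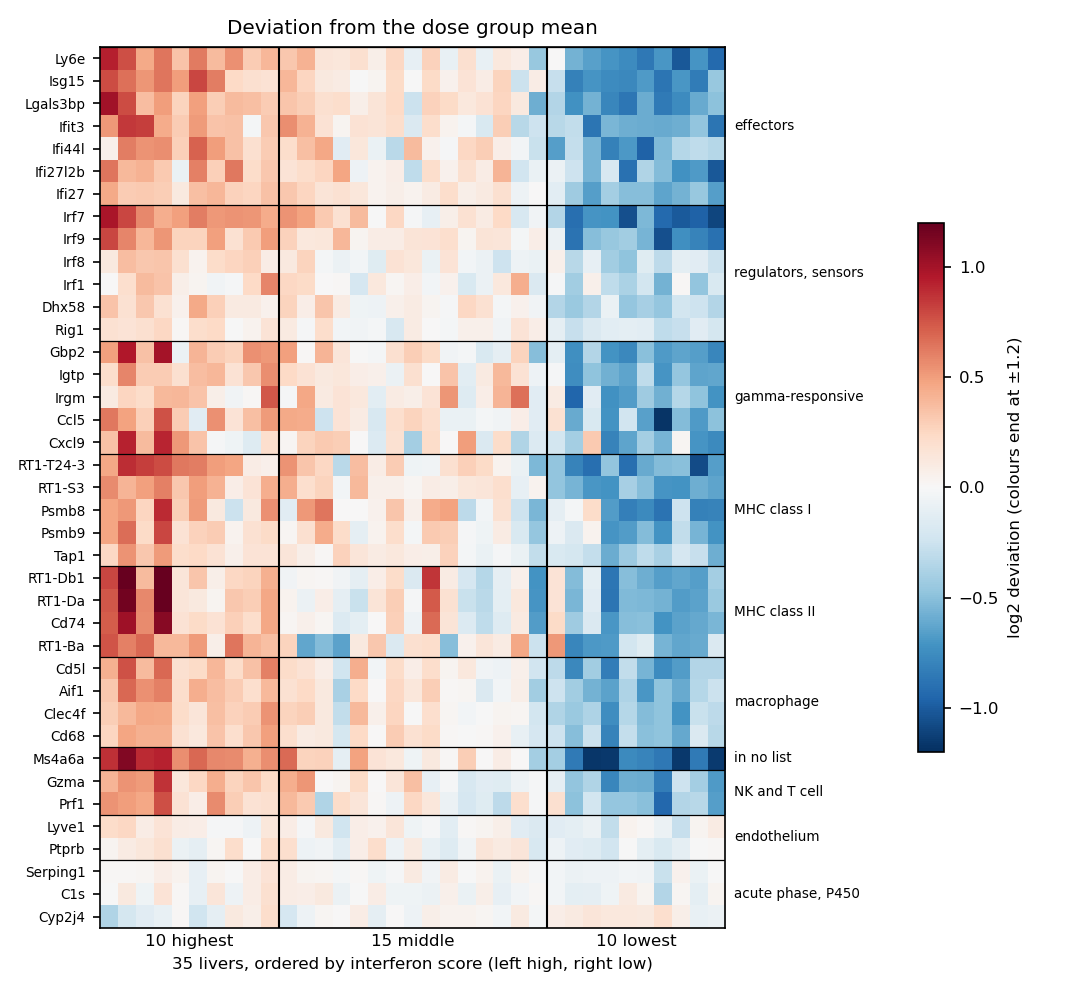
Log2 deviation from the dose group mean for named genes (rows, by list) in 35 livers (columns, ordered by score), red above and blue below the mean. The interferon and macrophage rows are mostly red in the 10 interferon-high livers and mostly blue in the 10 interferon-low livers, while Lyve1, Ptprb, Serping1, C1s and Cyp2j4 show little contrast.

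Genes that respond to interferon gamma were higher for 6 of 14 members, with a median of 0.46. Gbp2, a guanylate-binding GTPase that attacks pathogen vacuoles, was 2.15-fold higher (1.81 to 2.54), at 5.98 to 7.04 against 4.97 to 5.72. The related immunity GTPases Igtp and Irgm were 1.82-fold (1.63 to 2.04) and 1.66-fold (1.4 to 1.96) higher, and Gbp4, which was dim, 1.5-fold. The chemokines Ccl5 and Cxcl9, which draw T and natural killer cells, were 1.89-fold (1.58 to 2.26) and 1.72-fold (1.39 to 2.12) higher. Cxcl10, usually induced with Cxcl9, differed by 0.61 ± 0.18 and was not called, and Cxcl11 differed by 0.04 ± 0.08.

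Antigen presentation by MHC class I was higher for 12 of 24 members, with a median of 0.16. RT1-S3, a class I heavy chain, had levels of 9.31 to 10 (median 9.72) in interferon-high and 8.50 to 9.04 (median 8.72) in interferon-low livers. It was 2.01-fold higher (1.82 to 2.21, limma adjusted p = 5.82e-12), without overlap, and its 3 other probe sets were called the same way. RT1-T24-3 was 2.38-fold higher (2.01 to 2.82). The immunoproteasome subunits Psmb8, Psmb9 and Psmb10, which cut proteins into peptides for class I, were 1.80-fold, 1.73-fold and 1.23-fold higher, and the peptide transporter Tap1 1.54-fold. RT1-N3, a dim gene, was 1.36-fold higher. RT1-T24-4 was 1.33-fold higher, and lost its call without replicate 4 of 6.88 mg/kg (limma adjusted p = 0.0778). RT1 genes are near-identical copies, so signal may be shared among their probe sets. The chaperones Calr, Canx and Pdia3 of the general folding machinery differed by -0.02, 0.01 and -0.01. The ISRE core stood in 7 of 12 called class I promoters (58.3%) and in 1 of 9 not called.

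MHC class II, found on professional antigen-presenting cells, showed the largest list median, 0.79, with 6 of 9 members higher. Cd74, the invariant chain that escorts class II molecules, had levels of 9.08 to 10.19 (median 9.33) in interferon-high, 8.36 to 9.82 in middle and 8.21 to 9.01 (median 8.44) in interferon-low livers, a 2.01-fold difference (1.66 to 2.43). RT1-Db1 was 2.08-fold, RT1-Da 2.05-fold and RT1-Ba 1.91-fold higher, although 2 of the 3 other RT1-Ba probe sets moved the opposite way without a call. Within the interferon-high class Cd74 was uneven, with replicate 4 of 6.88 mg/kg at 10.05 and replicate 1 of 0.69 mg/kg at 10.19 above the other 8, and a middle liver, vehicle replicate 4, reached 9.82. Ciita, the master regulator of class II genes, differed by -0.05 ± 0.06.

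Macrophage genes moved with the score as well. Of 19 Kupffer cell and macrophage markers 15 were higher, and 14 did not overlap, with a median of 0.62. The shares over all genes were 1.75% and 0.577%. Clec4f, a lectin specific to Kupffer cells in rodents, had levels of 9.88 to 10.27 (median 10.10) in interferon-high, 9.46 to 10.20 (median 9.88) in middle and 8.86 to 9.55 (median 9.40) in interferon-low livers. It was 1.76-fold higher (1.58 to 1.96, limma adjusted p = 5.55e-09). Cd5l, a secreted macrophage protein, was 1.97-fold higher (1.74 to 2.23), the lysosomal protein Cd68 1.70-fold (1.52 to 1.89), and Aif1 1.87-fold (1.66 to 2.11), though the other Aif1 probe set moved the opposite way. Cd14, a lipopolysaccharide co-receptor, differed by -0.06 ± 0.12 and Lyz2 by 0.34 ± 0.17, and neither was called. The mean level of the list was 8.01 to 8.38 in interferon-high, 7.65 to 8.21 in middle and 7.41 to 7.82 in interferon-low livers. Outside the lists, Ms4a6a had the largest difference of all genes tested, at 6.26 to 7.18 (median 6.57) against 4.55 to 5.40 (median 5.03), or 3.19-fold (2.74 to 3.71). Its relative Ms4a6bl1 and the Fc receptor Fcgr3a were 2.03-fold and 2.02-fold higher.

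With the mean of the macrophage list as a covariate, differences were smaller in most of the interferon and antigen presentation lists. The macrophage list's own median went from 0.62 to -0.03, which this fit fixes near 0. The median of the effectors went from 0.41 to 0.33 and that of class I from 0.16 to 0.14, while class II went from 0.79 to 0.05 and interferon gamma responsive genes from 0.46 to 0.26. The sensors went from 0.15 to 0.02 and the receptors and signalling genes from 0.09 to 0.03. Of the effectors 4 were called in place of 39. Irf7 kept a log2 difference of 1.39 ± 0.20 (SE), Isg15 of 1.04 ± 0.18, Irf9 of 0.98 ± 0.19, Ifi27 of 0.75 ± 0.12, RT1-S3 of 0.68 ± 0.13 and Ms4a6a of 1.10 ± 0.19, all still past the threshold in limma. Ifi27l2b also stayed past it, and its difference grew from 0.92 to 1.21 ± 0.23. Ly6e at 0.89 ± 0.21, Slfn4 at 1.32 ± 0.35, Ddx60 at 0.68 ± 0.25 and Ifit3 at 0.75 ± 0.22 were not called (limma adjusted p = 0.165, 0.408, 0.831 and 0.552). Cd74 went to 0.16 ± 0.23 and RT1-Da to 0.10 ± 0.26. In this fit 8 genes were called higher (0.0563%) and 0 lower, against 413 higher and 408 lower at an unadjusted p under 0.05. Score and macrophage level rose together, and the standard error grew with the covariate, from 0.10 to 0.20 for Irf7. Since 15 of the 19 macrophage list members were themselves called higher, the covariate takes up part of the difference between the classes. Whether that part reflects cell number or interferon response was not tested.

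**Figure D3:**
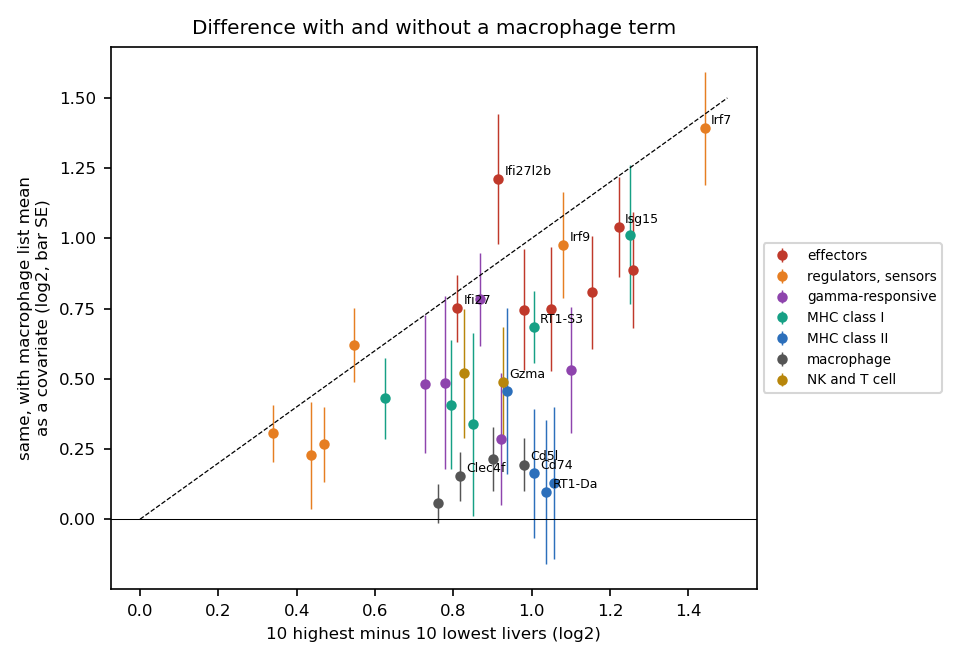
Log2 difference between interferon-high and interferon-low livers without (x axis) and with (y axis, bar SE) the macrophage list mean as a covariate, for called genes. Irf7, Isg15, Irf9 and Ifi27 stay near the dashed line of equality, and Cd74 and RT1-Da fall near 0.

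Fewer markers of other cell types were called. Of 20 lymphocyte and natural killer markers 4 were higher, against 1.75% of all genes, and all 4 belong to killer cell granules. Of the 20 markers 13 were dim, and 18 had a difference above 0. At an unadjusted p under 0.05 in limma 8 were higher and 1 lower, against 715 higher and 382 lower of all 14212 genes. Gzma was 1.90-fold (1.65 to 2.20), Prf1 1.78-fold (1.51 to 2.08) and the dim Gzmb 1.34-fold higher. Nkg7, also dim, was 1.29-fold higher, and lost its call without replicate 2 of 0.07 mg/kg or replicate 2 of 68 mg/kg (limma adjusted p = 0.0825 and 0.0736). The T cell receptor genes Cd3d, Cd3e and Cd3g were dim and differed by 0.03 to 0.09. Endothelial markers were called in 0 of 17 cases. At an unadjusted p under 0.05, however, 5 of the 17 were higher and 1 lower, beside the 715 and 382 of all 14212 genes. Lyve1 of sinusoidal endothelium, which had the smallest p of them, stood at 1.14-fold (1.05 to 1.23, limma adjusted p = 0.173). In limma 0 of 6 neutrophil, 16 stellate cell and 7 cholangiocyte markers were called, with 0 higher and 3 lower in all at an unadjusted p under 0.05. Of 7 dendritic cell markers Cd83 was called, at 1.25-fold. It lost the call in 6 of the 20 fits that left out 1 liver of either class, without replicate 2 of 0.07 mg/kg, replicate 1 or 5 of 0.69, replicate 4 or 5 of 6.88 or replicate 4 of 680 mg/kg (limma adjusted p up to 0.1).

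The 5 genes called lower all differed by less than 1.5-fold. Prps2, which makes the nucleotide precursor PRPP, had levels of 6.47 to 6.85 (median 6.71) in interferon-high and 6.70 to 7.26 (median 7.07) in interferon-low livers, a ratio of 0.784 (0.718 to 0.856, limma adjusted p = 5.11e-04). Pf4, a platelet chemokine, had a ratio of 0.795 (0.712 to 0.888, limma adjusted p = 0.0186), and lost its call without replicate 2 of 0.07 mg/kg or replicate 5 of 68 mg/kg (limma adjusted p = 0.0590 and 0.0824). All 8 blood cell markers had differences below 0, of which Pf4 was called, while 6585 of all 14212 genes had differences above 0. Chrna7 had a ratio of 0.849 and lost its call in 15 of the 20 fits that left out 1 liver, with a limma adjusted p of up to 0.2 without replicate 4 of 6.88 mg/kg. The other genes called lower were Sytl4 and Olfm1, which were dim.

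The liver's own programmes showed few calls. In limma 0 of 30 drug-metabolising P450 and related genes, 0 of 20 cholesterol genes, 0 of 26 PPAR-alpha targets, 0 of 16 fasting genes, 0 of 21 acute phase genes, 0 of 19 ER stress genes and 0 of 16 clock genes passed. At an unadjusted p under 0.05 these lists held 3, 0, 1, 0, 2, 1 and 0 genes, against 715 higher and 382 lower of all 14212 genes. The 3 of the P450 list were all lower, and those of the other lists were higher. The smallest p in these lists was that of Ucp2, a mitochondrial carrier, at 1.14-fold (1.06 to 1.23, limma adjusted p = 0.11). Cyp2j4 stood at 0.893-fold (0.822 to 0.971) and the complement inhibitor Serping1, a known interferon target, at 1.07-fold (1.01 to 1.13). Of 18 NF-kappaB and inflammatory genes 3 were higher: the chemokine Ccl3 at 1.30-fold, the adhesion molecule Vcam1 at 1.29-fold and Il1b at 1.25-fold. Il1b lost its call in 5 of the 20 fits that left out 1 liver, without replicate 2 of 0.07 mg/kg, replicate 1 or 5 of 0.69, replicate 4 of 6.88 or replicate 5 of 68 mg/kg (limma adjusted p up to 0.107). Of 36 cell cycle genes 31 had a difference above 0, against 6585 of all 14212 genes, with a median of 0.13. At an unadjusted p under 0.05, 6 were higher and 0 lower, and 16 of the 36 were dim. In the 15 middle livers alone 13 of the 36 had a positive slope on the score, against 6841 of all genes. Only Mcm6, a helicase subunit of DNA replication, was called, at 1.32-fold. It lost the call in 13 of those 20 fits (limma adjusted p up to 0.153, without replicate 5 of 0.69 mg/kg).

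**Figure D4:**
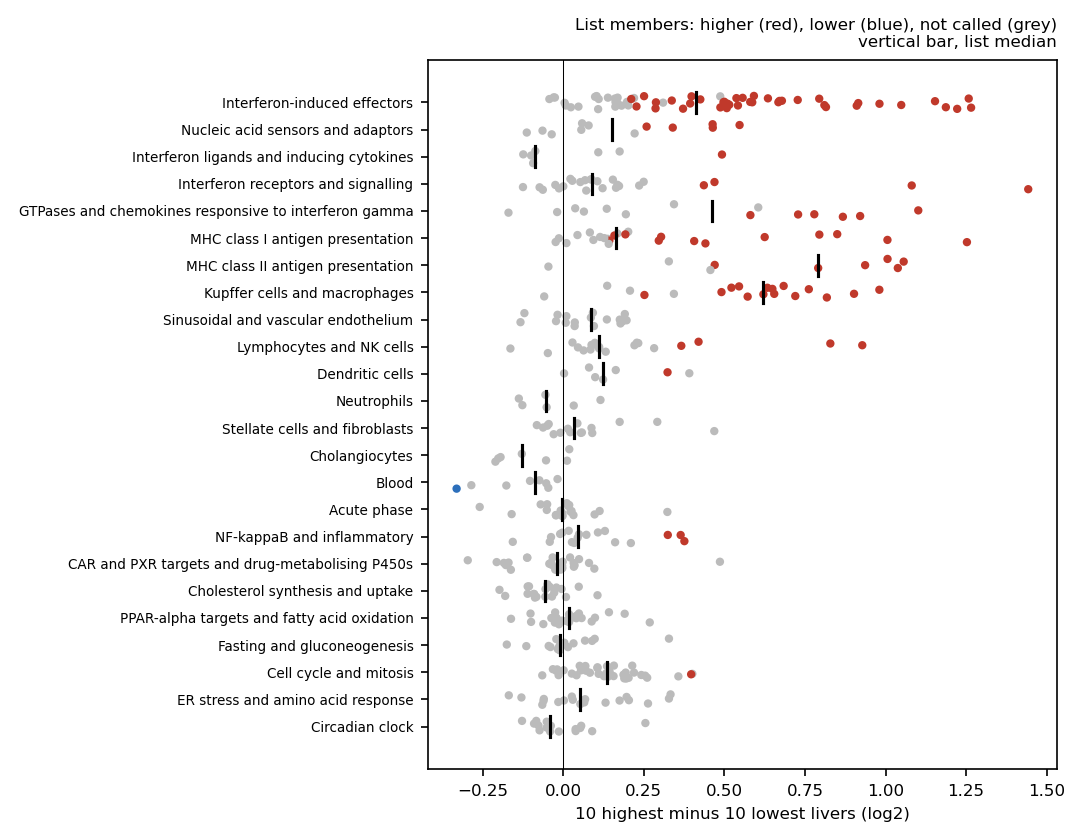
Log2 difference between interferon-high and interferon-low livers for each measured member of 24 lists, red where called higher, blue where called lower, with the list median as a bar. Interferon, antigen presentation and macrophage lists reach to the right, and metabolic lists centre near 0.

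More genes passed the test between middle and interferon-low livers than between interferon-high and middle livers. The median score was 0.68 in interferon-high, 0.17 in middle and -1.01 in interferon-low livers. The step from low to middle thus covers more of the score. For genes that follow the score, a larger difference in that step was largely built into the choice of classes. Against interferon-low livers, middle livers had 58 genes higher (0.408%) and 1 lower (0.00704%) in limma, while interferon-high against middle livers gave 0 and 0. At an unadjusted p under 0.05 the counts were 439 higher and 313 lower in the first step and 449 higher and 225 lower in the second. The effectors' median was 0.24 for middle minus low and 0.13 for high minus middle. Irf7 differed by 0.98 in the first step and by 0.46 in the second. Cd74 differed by 0.35 and 0.66, RT1-Ba by 0.23 and 0.71, RT1-Db1 by 0.36 and 0.70 and RT1-Da by 0.37 and 0.67, while the class II list had medians of 0.35 and 0.32. Medians were 0.35 and 0.30 for the macrophage list, 0.099 and 0.080 for the sensors and 0.03 and 0.11 for the lymphocyte markers. The difference between the steps was not tested.

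The 15 middle livers entered neither class, but they were part of the fit to all arrays. The same genes were set against the score in these livers alone. This is the score that chose the classes, and interferon genes are known to move with the scoring genes. Slopes in the middle livers are therefore not independent evidence, and how far the called genes move with one another was not tested. Of the 248 genes called higher 214 had a positive slope on the score there, against 6841 of all 14212 genes. At an unadjusted p under 0.05, 58 of the 248 rose with the score in limma, against 410 of all genes (2.88%), while 407 of all genes fell with it (2.86%), and after adjustment 0 probe sets passed. Among the exceptions were Slfn4 with a slope of -0.31, Irgm with -0.24 and RT1-Ba with -0.19.

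Within dose groups that held both classes, the effector list mean was higher in interferon-high livers in every group, by 0.40 at 0.07 mg/kg, 0.45 at 0.69, 0.54 at 6.88, 0.47 at 68 and 0.42 at 680 mg/kg. The macrophage list mean was also higher in each, by 0.46, 0.58, 0.71, 0.65 and 0.35. Class II varied more, by 0.40, 0.93, 1.13, 0.63 and 0.22. In these 5 groups, which held 1 to 3 livers of a class, no interferon-high liver fell to the level of an interferon-low liver in any of these 3 list means. The classes were chosen by deviations of interferon-induced genes within dose groups, so separation of the effector means was largely built into the choice. These values are a description and carry no test.

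Over all 35 livers, as deviations from the dose group means, the genes most like the score were Irf7 (Pearson r = 0.98), Ms4a6a (0.97), Ifi27, LOC100910973 and Ly6e. These values describe arrays that share their scoring, and carry no test.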

How the data were processed

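Liver RNA of 35 rats was hybridised to 1-colour Affymetrix rat arrays, 1 array each. RMA and the affy package are named in the submitters' processing notes, without versions. Expression per probe set, as deposited by the authors, was taken to be on the log2 scale that RMA normally gives. RMA makes the arrays' distributions nearly equal, so a shift of most transcripts would be reduced, and dim differences are compressed. The number of arrays limits the precision.

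The table held 31099 probe sets. The 57 controls and 6 probe sets of the scoring genes were left out, and no filter on dim signal was applied. Genes were named by the platform annotation, checked against RefSeq GRCr8: 20826 probe sets had 1 symbol, 436 several and 9780 none, and those with several or none were not named. A gene was represented by its probe set with the highest mean.

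Dose groups came from the labels. limma 3.58.1 in R 4.3.3 fitted dose group and class to all arrays (27 residual degrees of freedom), with Benjamini-Hochberg adjustment over all 31036 probe sets. Fold changes are 2 to the power of the fitted difference, with 95% intervals for single genes. Tested on simulated data of the same size, the fit called 25 of 50 probe sets changed by 0.25 and 44 of 50 changed by 0.5, with 9 false among 178 calls. Whether these counts carry over to classes chosen by a score from the same arrays was not tested.

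The members, the 24 lists (455 of 582 entries measured) and the tests were chosen with earlier results of these data known. The promoter motifs, searched on both strands, were chosen after the differences were seen, and so were the comparisons with middle livers and the endothelial covariate. Named genes were the 15 largest called differences in each direction among genes that were not dim, the called list members with the largest differences (up to 8 for 6 interferon and antigen presentation lists and 4 for others, or the 2 with the smallest p where none was called) and the 5 genes most like the score. Other genes named as not called were chosen after their values were seen, for their known roles. Alternatives covered class size, score, normalization, covariates, the replicate number as a block, and leaving out each array or dose group.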

Additional observations from a re-analysis of the deposited data

Results flagged for a closer look

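In groups of 4 to 10 livers, 64 sets of values were checked for a liver far from the others, a check that chance alone flags in about 1 in 20, and 5 stood out. In the vehicle group, replicate 3 had a mean of the scoring genes of 5.03, with the next lowest vehicle liver at 6.15. These genes chose the classes, so the value is a description. The other 4 concern replicate 6 of 0.07 mg/kg within the interferon-low class, the liver at its boundary. Its deviation from the dose group mean was -0.41 for Ms4a6a, with the next at -0.77. For Ly6e it was 0.0065, with the next at -0.57. For the mean of the effector list it was -0.061, with the next at -0.24, and for the mean of the dendritic cell list it was 0.151, with the next at -0.031. The score of this liver was -0.37, and that of the next interferon-low liver -0.87. Gaps in Ms4a6a, Ly6e and the effectors, which follow the score, therefore largely restate the choice of classes.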

How the results depend on the processing

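The 354 higher probe sets and 39 effectors stayed within 1.5 times of these counts under every alternative tried except those that follow. For higher probe sets these were the macrophage covariate (11), leaving out the 0.69 mg/kg group (229), middle minus low (81), high minus middle (0) and the slope in 15 middle livers (0). For effectors they were the macrophage covariate (4), high minus middle (0) and the slope in middle livers (0). The 16 lower probe sets were less stable: 26 with 12 livers per class, 29 for the slope over 35 livers, 6 from the 20 livers alone, 8 with 1 probe set per gene, 7 with the Actb and 9 with the endothelial covariate. They were 2 for middle minus low, 0 with the macrophage covariate, for high minus middle and for the slope in middle livers, and 10, 7, 8 and 25 without the vehicle, 0.69, 6.88 and 68 mg/kg groups. Leaving out a dose group, the 20 livers alone and the slope in middle livers use fewer livers, and otherwise the cause was not tested. Leaving out 1 liver at a time gave 289 to 372 higher and 8 to 28 lower probe sets and 36 to 41 effectors, and 49 of 57 called named genes kept their call throughout. Irf1, Psmb8, Ccl3, Il18 and Vcam1 also lost theirs without the 0.69 mg/kg group.

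With the replicate block, limma called 282 higher and 10 lower probe sets and 34 effectors. Of the 57 called named genes 8 lost their call with it. Over all probe sets the numbers did not pair the livers. The mean correlation of same-numbered livers over 85 pairs was -0.0091, and 2 of 35 livers correlated best with their own number. The classes were uneven over the numbers. Numbers 1 to 6 held 3, 2, 1, 3, 0 and 1 interferon-high livers and 0, 1, 3, 1, 3 and 2 interferon-low livers. A link between number and score was not tested.

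Signs reversed for some named genes. In the slope over middle livers these were Slfn4 (-0.31), Pf4 (0.40), Chrna7 (0.043), Rig1 (-0.26), Igtp (-0.0075), Irgm (-0.24), RT1-N3 (-0.0056), RT1-Ba (-0.19), Cd83 (-0.12), Des (-0.29), Cd24 (0.42), Cldn4 (0.075), Serping1 (-0.00087), Abcb1a (0.40), Ucp2 (-0.077), Sds (0.066), Mcm6 (-0.19), Atf4 (-0.85) and Per3 (0.077). With the macrophage covariate they were Tlr7 (-0.0061), Il18 (-0.10), Gbp4 (-0.13), Lyve1 (-0.21), Ptprb (-0.11), Cd83 (-0.023), Cxcr2 (-0.013), Timp1 (-0.19), C1s (-0.018) and Il1b (-0.23). For middle minus low they were Camp (0.0025), Des (-0.081), Asns (-0.12) and Sds (0.016), for high minus middle Cd24 (0.0081) and Hlf (0.0037), and with the replicate block Cxcr2 (-0.011). The cause was not tested.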

Other observations

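Of the 248 genes called higher in interferon-high livers, 151 were in none of the lists, and those named here were chosen after their values were seen. The chemokine Ccl6 was 1.89-fold higher, the Fc receptor gamma chain Fcer1g 1.65-fold, the shared leukocyte antigen Ptprc 1.57-fold, the integrin chain Itgb2 1.41-fold and Fcna, a ficolin that opens the lectin pathway of complement, 1.47-fold. Casp1, a protease that processes Il1b, was 1.49-fold higher and the adaptor protein Pycard 1.48-fold. The endosomal RNA receptor Tlr8 was 1.46-fold higher, and the endolysosomal transporters Slc15a3 and Slc15a4 were 1.36-fold and 1.77-fold higher. Slpi, a secreted protease inhibitor, was 1.94-fold higher. All of these passed the threshold in limma.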
